A study of Macaca fascicularis with 6 samples.

Results

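The genes described here are 34 genes of macrophages and of Kupffer cells, which are macrophages that live in the liver sinusoids, chosen by name and read from arrays of macaque liver. Each gene was represented by the probe set with the highest mean signal over the 6 arrays among those annotated with its symbol alone. A probe set of this kind named 33 of the 34 genes, out of 19775 genes so named on the array. CD68 was the exception, because its only probe set also carried the symbol of a small nucleolar RNA. Of the 33 genes, 29 were bright enough to be tested, with a mean signal at or above 129, the median over all probe sets. Liver RNA came from 6 cynomolgus macaques (Macaca fascicularis), of which 3 had been given an LXR ligand and 3 vehicle, with each animal on an array of its own. The ligand arrays carry the letters GW in their titles. The sex and age of the animals, the identity of the ligand, its dose and the length of treatment are not given in the sources used here. The probes were designed against human transcripts, so a macaque gene is named by its human symbol, and a probe that mismatches the macaque sequence reads too low.

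Macrophages take up dying cells, old red cells, bacteria and modified lipoproteins through scavenger and pattern recognition receptors, and Kupffer cells do so from the blood passing through the liver. Their survival depends on the growth factor receptor CSF1R, and their identity on the transcription factor PU.1, encoded by SPI1. LXR, the liver X receptor, senses oxidised cholesterol and is active in macrophages as well as in hepatocytes, where it drives genes of cholesterol efflux. In a sample of whole liver, a change in the number of macrophages and a change in RNA per macrophage cannot be told apart.

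Values are MAS5 signals, intensities in arbitrary units whose trimmed mean was the same on every array. Differences are ligand minus vehicle on log2(signal + 16), tested with limma over 27304 probe sets. After Benjamini-Hochberg adjustment 0 probe sets passed at 0.05 (0%), and 1523 had an unadjusted p under 0.05. The median difference over all 13349 genes tested was 0.0027. Because the deposited arrays share a common trimmed mean, this value cannot show whether the 2 groups were level before any scaling. The median signal of all probe sets was 110.5 on vehicle array 1, against 128.8 to 139.0 on the other arrays. Ligand array 1 stood apart from the other 5 arrays on the first principal component. The ratio of 3' to 5' actin control signals, which rises as RNA breaks down, was 6.16, 6.26 and 16.04 on ligand arrays 1 to 3 and 4.45, 5.64 and 8.34 on vehicle arrays 1 to 3. Its part in the results below was not tested.

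Most of the macrophage genes had higher signals in the livers of the animals given the ligand. With no filter on brightness, 29 of the 33 genes were higher and 4 lower, with a median log2 difference of 0.57, against 50% of all genes higher. All 3 ligand arrays lay above all 3 vehicle arrays for 6 of the 33 genes, against 5.71% of all genes, and below them for 0 of the 33, against 4.92%. Among the 29 tested genes, 27 were higher and 2 lower, against 50.3% higher among all tested genes. The groups of 3 arrays did not overlap for 5 of the 29 in the upward direction (6.21% of all tested genes) and for 0 of the 29 in the downward direction (5.21%). MSR1, FOLR2 and MS4A4A passed the brightness filter although their vehicle mean lay below it, and TLR4 although its ligand mean did. An unadjusted p under 0.05 with a higher signal was reached by 8 of the 29 (3.7% of all tested genes), and with a lower signal by 0 of the 29 (2.42%). None of the 29 passed after adjustment over all probe sets, where the lowest adjusted p was 0.387, for MARCO. The values of single genes below are therefore sizes with their errors, and none of these genes was called.

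The vehicle arrays differed among themselves. The median deviation of the 29 genes from their own mean over the 6 arrays was 0.22, 0.38 and 0.20 log2 units on ligand arrays 1 to 3. On vehicle arrays 1 to 3 it was -0.36, -0.60 and 0.095, while for all tested genes it ranged only from -0.022 to 0.050 over the 6 arrays. Vehicle array 3 thus lay near the ligand arrays for these genes, and vehicle arrays 1 and 2 lay below them. The lowest signal of the 6 was on vehicle array 2 for 18 of the 29 genes and on vehicle array 1 for 6. Vehicle array 3 exceeded both other vehicle arrays for 22 of the 29 genes, against 37.1% of all tested genes. It lay at or above the lowest ligand array for 22 of the 29, a share close to the 76.6% of all tested genes, so that count does not set these genes apart. Leaving out vehicle array 2 brought the median log2 difference to 0.45, with 23 of the 29 genes higher and 2 with an unadjusted limma p under 0.05 (3.39% of all genes in that fit). With vehicle array 1 left out, 4 genes had such a p (3.42% of all genes). Leaving out vehicle array 3 gave a median of 0.77 and 13 genes with such a p (4.34% of all genes). Leaving out ligand array 1, which stood apart, gave a median of 0.64, with 26 genes higher and 8 with such a p (3.33% of all genes). Leaving out ligand array 3, with the highest actin ratio, gave a median of 0.55, with 26 genes higher and 10 with such a p (2.84% of all genes).

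**Figure D1:**
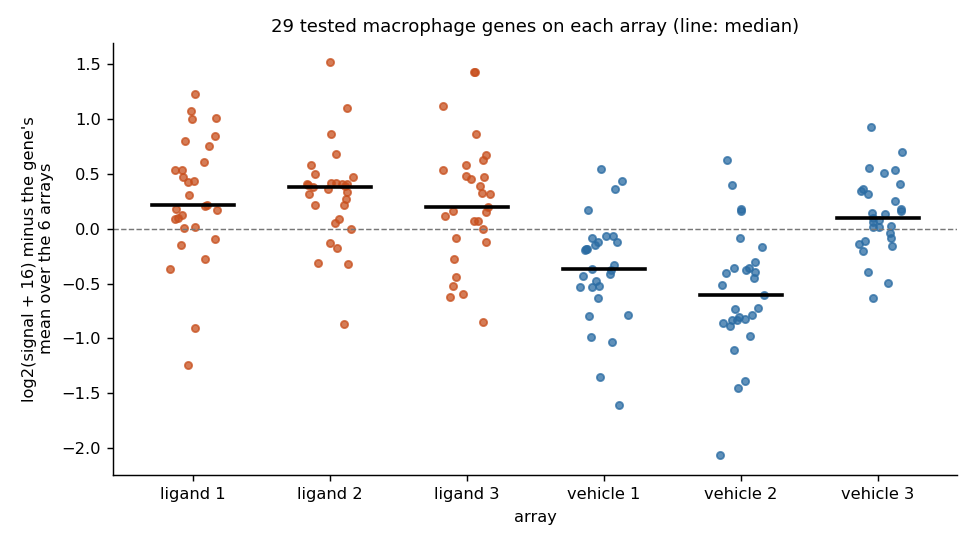
Deviation of each of the 29 tested macrophage genes from its own mean over the 6 arrays, in log2(signal + 16), by array (orange, LXR ligand; blue, vehicle; black line, median of the 29 genes). The medians of the ligand arrays lie between 0.20 and 0.38, those of vehicle arrays 1 and 2 at -0.36 and -0.60, and that of vehicle array 3 at 0.095.

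The scavenger and endocytic receptors were all higher where they could be tested, 6 of 6, against 50.3% of all tested genes, with a median log2 difference of 0.71. Of these 6, MSR1 and FOLR2 passed the filter although their vehicle mean lay below it. TIMD4, which the filter left out, was lower. MARCO, a collagen-like scavenger receptor that binds bacteria and particles, had signals of 3285, 2430 and 2733 on ligand arrays 1 to 3, against 1171, 1016 and 1383 on vehicle arrays 1 to 3. Every ligand array was above every vehicle array, and the gap between the groups was wider than the range within either. The log2 difference was 1.23 ± 0.22 (SE), a 2.35-fold higher signal, with an unadjusted limma p of 0.000215. When an array was left out, the difference stayed between 1.12 and 1.34.

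CD163, which takes up complexes of haemoglobin and haptoglobin, had signals of 2228, 2283 and 1822 with the ligand, against 1441, 982 and 1470 with vehicle. The groups did not overlap, and vehicle array 2 was the lowest. Its log2 difference was 0.71 ± 0.23 (SE), or 0.52 without vehicle array 2. MRC1, the mannose receptor, gave 2335, 3022 and 1975 on the ligand arrays, against 1306, 1137 and 2133 on the vehicle arrays. Here vehicle array 3 was above ligand array 3, and the log2 difference was 0.71 ± 0.28 (SE). FOLR2, a folate receptor of tissue macrophages, had signals of 339, 344 and 95.8 with the ligand, against 212, 48.3 and 92.7 with vehicle. Only ligand arrays 1 and 2 stood above the vehicle arrays, and its log2 difference of 1.05 had a wide SE of 0.64. Leaving out vehicle array 2 gave 0.62, and leaving out ligand array 3 gave 1.61. A second FOLR2 probe set, below the filter, went the other way, at -1.02 with every ligand array below every vehicle array.

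SIGLEC1, a sialic acid receptor of macrophages, had 813, 1176 and 1035 on the ligand arrays, against 862, 658 and 956 on the vehicle arrays. The groups overlapped, and the 95% interval of its log2 difference of 0.28 ran from -0.28 to 0.85, with 0.13 when vehicle array 2 was left out. MSR1, the class A scavenger receptor, had 128, 151 and 135 with the ligand, against 145, 65.1 and 166 with vehicle. Its log2 difference of 0.20, with a 95% interval from -1.01 to 1.41, turned to -0.16 without vehicle array 2. TIMD4, which binds phosphatidylserine on dying cells and marks long-lived Kupffer cells in mouse and human, was too dim to be tested. It had signals of 78.3, 36.9 and 7.12 with the ligand, against 62.0, 25.1 and 96.1 with vehicle, 2 ranges that overlap. In the fit without a filter the log2 difference of TIMD4 was -0.55 ± 0.66 (SE).

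**Figure D2:**
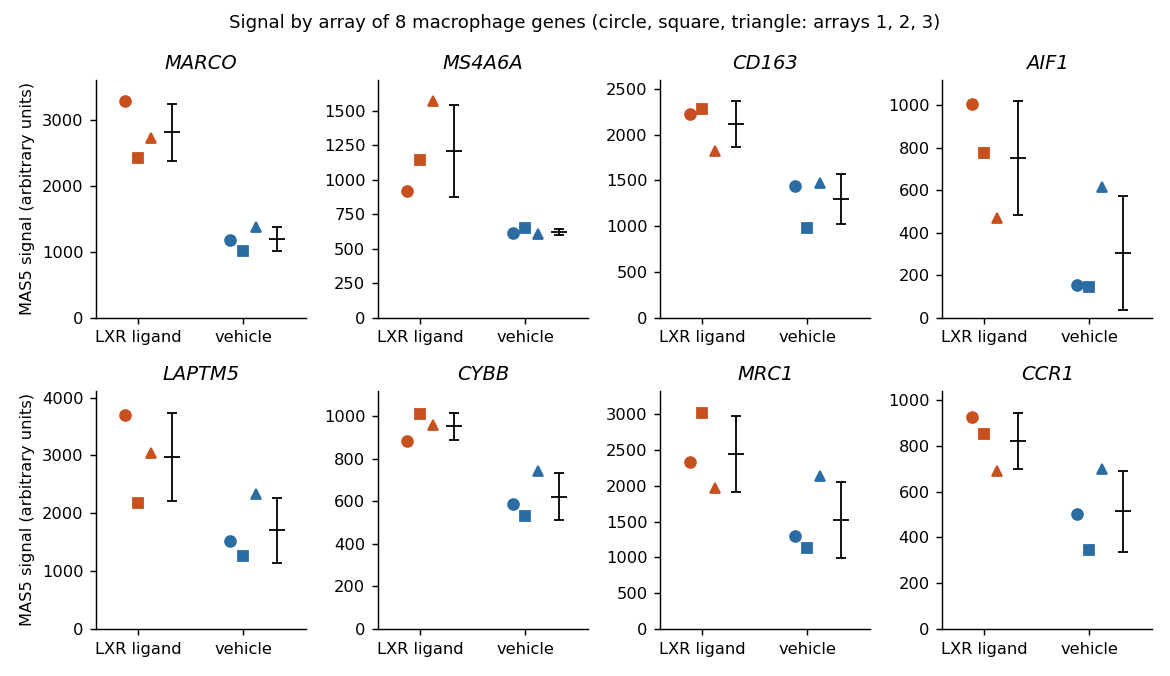
MAS5 signal (arbitrary units, axes from 0) on each array for the 8 genes with an unadjusted limma p under 0.05, in order of p (circle, square and triangle for arrays 1, 2 and 3; bars, mean and SD of 3 arrays). MARCO, MS4A6A, CD163 and CYBB have every ligand array above every vehicle array, while in AIF1, LAPTM5, MRC1 and CCR1 vehicle array 3 lies above the lowest ligand array.

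Of the 4 pattern recognition receptors 3 were higher and 1 was lower, and none reached an unadjusted p under 0.05. CD14, which hands bacterial lipopolysaccharide to TLR4, had signals of 8270, 11647 and 7298 with the ligand, against 6980, 6064 and 7298 with vehicle. Ligand array 3 and vehicle array 3 gave nearly the same signal, and the groups overlapped by that margin alone. Its log2 difference was 0.39 ± 0.21 (SE), or 0.20 without ligand array 2. CLEC7A, the receptor for fungal beta-glucan known as dectin-1, had 625, 398 and 400 on the ligand arrays, against 220, 59.9 and 500 on the vehicle arrays. The vehicle arrays spanned a wider range than the ligand arrays, and the log2 difference of 1.19 ± 0.59 (SE) was 0.46 without vehicle array 2.

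TLR2, which senses bacterial lipoproteins, had 648, 598 and 287 with the ligand, against 284, 393 and 426 with vehicle. Ligand array 3 sat at the bottom of the vehicle range, and the log2 difference of 0.40 ± 0.35 (SE) was 0.19 without ligand array 1 and 0.75 without ligand array 3. TLR4, the lipopolysaccharide receptor, went the other way, with 66.2, 175 and 69.1 on the ligand arrays, against 126, 221 and 276 on the vehicle arrays. The log2 difference of -0.96 ± 0.56 (SE) came from a dim probe set whose ligand array 2 reached into the vehicle range. A second TLR4 probe set of nearly the same brightness had a log2 difference of 0.17 ± 0.79 (SE), so the 2 probe sets gave no common direction.

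The next group held the lineage factor SPI1 together with growth, chemokine and other receptors. CSF1R, the receptor for the growth factors CSF1 and IL-34, had signals of 1122, 1598 and 1737 with the ligand, against 1143, 678 and 1208 with vehicle. Ligand array 1 lay within the vehicle range. The log2 difference was 0.57 ± 0.29 (SE), or 0.31 without vehicle array 2. CCR1, a chemokine receptor of monocytes and macrophages, had 928, 851 and 689 with the ligand, against 501, 343 and 698 with vehicle. Vehicle array 3 was slightly above ligand array 3, and the log2 difference of 0.71 ± 0.30 (SE) was 0.45 without vehicle array 2.

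CD4, found on monocytes and macrophages of primates as well as on helper T cells, had 444, 460 and 323 with the ligand, against 371, 443 and 340 with vehicle. Its groups overlapped over most of their range, with a log2 difference of 0.076 and a 95% interval from -0.55 to 0.70. SPI1 was too dim to be tested, with 90.1, 34.5 and 54.6 on the ligand arrays, against 35.4, 45.5 and 65.0 on the vehicle arrays. ADGRE1, the human counterpart of the mouse macrophage marker F4/80, was also below the filter, with 67.9, 18.8 and 31.1 on the ligand arrays, against 24.8, 237 and 116 on the vehicle arrays. Neither of these dim genes separated the groups. In the fit without a filter the log2 difference was 0.19 ± 0.57 (SE) for SPI1 and -1.10 ± 0.74 (SE) for ADGRE1.

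**Figure D3:**
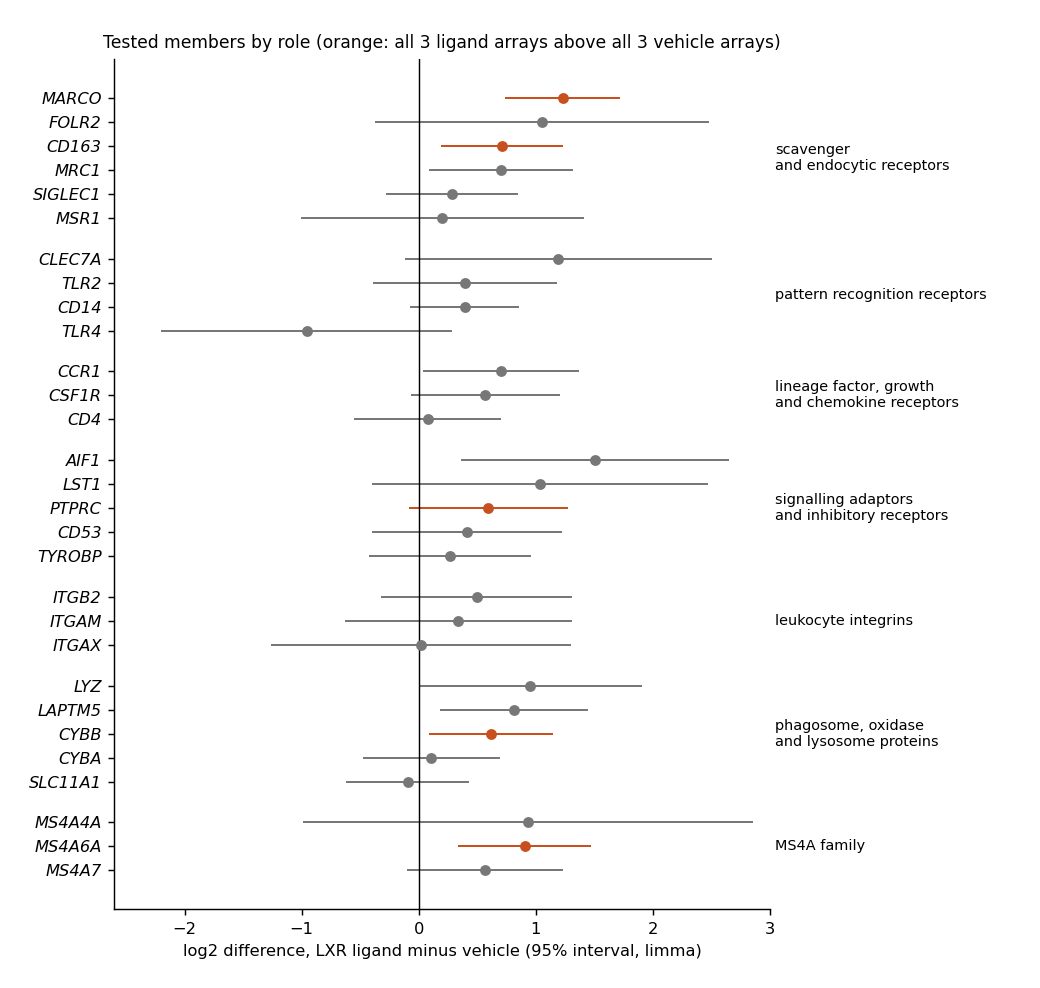
Log2 difference (LXR ligand minus vehicle) with its 95% interval from limma for the 29 tested genes, grouped by role (orange, genes whose groups of 3 arrays did not overlap; grey, the others). MARCO (1.23), CD163 (0.71), PTPRC (0.60), CYBB (0.62) and MS4A6A (0.91) are the orange genes, and TLR4 (-0.96) and SLC11A1 (-0.091) the only ones below 0.

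All 5 tested genes of leukocyte signalling were higher, against 50.3% of all tested genes, and their median log2 difference was 0.60. AIF1, an actin-binding protein also called IBA1, had signals of 1005, 778 and 471 with the ligand, against 155, 143 and 614 with vehicle. Vehicle arrays 1 and 2 were far below the ligand arrays, but vehicle array 3 was above ligand array 3. The log2 difference was 1.51 ± 0.51 (SE), the largest of the 29 genes, and lay between 1.16, with vehicle array 2 left out, and 2.15, with vehicle array 3 left out. PTPRC, the pan-leukocyte phosphatase CD45, had 606, 591 and 890 with the ligand, against 314, 492 and 576 with vehicle. These groups did not overlap, by a small margin, and the log2 difference was 0.60 ± 0.31 (SE), or 0.35 without vehicle array 1. Its other tested probe sets read 0.49 and 0.11 on the log2 scale, with groups that overlapped.

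TYROBP, the adaptor DAP12 that carries activating signals of several myeloid receptors, had 1240, 1225 and 675 on the ligand arrays, against 710, 712 and 1151 on the vehicle arrays. Ligand array 3 was the lowest of the 6 and vehicle array 3 lay close to the other ligand arrays, so the groups overlapped, and the log2 difference of 0.27 ± 0.31 (SE) was 0.12 without ligand array 1 and 0.55 without ligand array 3. CD53, a leukocyte tetraspanin, had 743, 1091 and 1403 with the ligand, against 513, 692 and 1331 with vehicle. LST1, a leukocyte membrane protein encoded in the major histocompatibility complex, had 387, 94.0 and 526 with the ligand, against 85.6, 86.2 and 252 with vehicle. The groups overlapped in both genes, with log2 differences of 0.41 ± 0.37 (SE) for CD53 and 1.04 ± 0.65 (SE) for LST1. With 1 array left out, CD53 lay between 0.12 (vehicle array 1) and 0.79 (vehicle array 3), and LST1 between 0.58 (ligand array 3) and 1.73 (ligand array 2). LILRB5, an inhibitory receptor of the leukocyte immunoglobulin-like family, lay just under the filter, at a mean signal of 118. Its signals were 251, 89.1 and 203 with the ligand, against 73.7, 73.2 and 15.2 with vehicle, groups that did not overlap. In the fit without a filter its log2 difference was 1.54 ± 0.65 (SE), with a limma adjusted p of 0.942.

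The leukocyte integrins, which hold leukocytes to vessel walls and bind complement-coated particles, gave small differences beside their errors. ITGB2, the shared beta chain, had 517, 459 and 623 with the ligand, against 208, 587 and 409 with vehicle, a log2 difference of 0.50 ± 0.37 (SE) that was 0.11 without vehicle array 1 and 0.82 without vehicle array 2. ITGAM, the alpha chain of complement receptor 3, had 658, 474 and 235 with the ligand, against 481, 193 and 377 with vehicle, a log2 difference of 0.34 ± 0.44 (SE) that was -0.019 without vehicle array 2 and 0.74 without ligand array 3. ITGAX, the alpha chain CD11c, had 183, 98.7 and 115 with the ligand, against 192, 64.5 and 154 with vehicle. The groups overlapped in all 3 genes. The 95% interval for ITGAX ran from -1.26 to 1.31 and held differences of either sign.

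In the phagosome group 4 of 5 genes were higher. CYBB, the catalytic subunit of the phagocyte NADPH oxidase, had signals of 882, 1011 and 960 with the ligand, against 586, 531 and 744 with vehicle. The groups did not overlap, and the log2 difference on this probe set was 0.62 ± 0.24 (SE). CYBA, its membrane partner, had 1173, 1028 and 1453 with the ligand, against 1066, 873 and 1495 with vehicle. The ranges of CYBA nearly coincided, with a log2 difference of 0.11 ± 0.26 (SE).

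LAPTM5, a lysosomal membrane protein of blood cells, had 3703, 2183 and 3046 on the ligand arrays, against 1513, 1260 and 2339 on the vehicle arrays. Ligand array 2 lay just below vehicle array 3, and the log2 difference was 0.82 ± 0.28 (SE). LYZ, the secreted enzyme lysozyme that cuts bacterial walls, had 1053, 1749 and 3693 with the ligand, against 1190, 625 and 1233 with vehicle. Ligand array 3 stood far above the other 5 arrays while ligand array 1 lay within the vehicle range. The log2 difference of LYZ, 0.95 ± 0.43 (SE), was 0.47 without ligand array 3 and 1.37 without ligand array 1. SLC11A1, a metal ion transporter of the phagosome also called NRAMP1, had 1256, 882 and 1100 with the ligand, against 967, 1250 and 1222 with vehicle. Its log2 difference was -0.091, with a 95% interval from -0.62 to 0.43.

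The 3 genes of the MS4A family, membrane proteins that span the bilayer several times, were all higher, against 50.3% of all tested genes. MS4A4A passed the filter although its vehicle mean lay below it. MS4A6A had signals of 915, 1139 and 1567 with the ligand, against 612, 647 and 604 with vehicle. The vehicle arrays were close together and all below the ligand arrays, and the log2 difference was 0.91 ± 0.26 (SE), with an unadjusted limma p of 0.00522. MS4A7 had 954, 595 and 900 with the ligand, against 486, 425 and 736 with vehicle, and its groups overlapped through ligand array 2. Its log2 difference was 0.57 ± 0.30 (SE). MS4A4A had 36.8, 341 and 255 with the ligand, against 25.0, 85.0 and 161 with vehicle. Its arrays were scattered within both groups, and the log2 difference of 0.93 had an SE of 0.87, with 0.36 when vehicle array 1 was left out and 1.79 when ligand array 1 was. The symbols MS4A6A and MS4A4A, like LILRB5, were not among the macaque symbols of assembly T2T-MFA8v1.1, where the other 31 members were found. Names ending in _x_at mark probe sets whose probes can also match other transcripts, and the probe set of MS4A6A used here is one of them, as are those of AIF1 and LST1.

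Other probe sets of a gene gave a check on these values. Over 1 tested probe set was available for 15 of the 29 genes, and for 8 of the 15 all tested probe sets were higher with the ligand. Of the 24 tested probe sets other than the brightest, 17 had the sign of the brightest and 7 the opposite sign. For AIF1 the remaining 2 tested probe sets read 1.82 and 1.604 on the log2 scale, and for CD163 the second read 0.79. LAPTM5 had 0.71 and LYZ 0.74 on their second probe sets, and CCR1 1.102. The values of these 5 genes thus did not rest on a single probe set. But every tested AIF1 probe set and the second of CD163 end in _x_at, so they may not be independent readings. On the second probe sets the groups overlapped for LAPTM5 and CCR1 and did not for CD163 and LYZ. Below the filter, a further probe set read -0.62 for CD163 and 0.26 for AIF1, both with overlap.

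For MS4A6A, 3 further tested probe sets had 0.75, 1.16 and 0.87, each with every ligand array above every vehicle array. The last tested one, just above the filter, had -1.54 with every ligand array below every vehicle array. Averaged over its tested probe sets, MS4A6A had a log2 difference of 0.43, with an unadjusted limma p of 0.1096. For LST1, 3 of 4 tested probe sets were higher and the remaining one read -0.015. CYBB was less uniform, with 0.043 and -0.82 on its other tested probe sets, and the mean over its tested probe sets gave a log2 difference of -0.053. CYBA had -0.90 on its second probe set and ITGAM -0.22. SLC11A1 had 1.49 and -0.78, on either side of its brightest probe set. The differences given above for CYBB, CYBA, ITGAM and SLC11A1 therefore depended on which probe set was read. Some further probe sets below the filter, not tested, also had groups that did not overlap. Those of CYBB (-1.65), FOLR2 (-1.02), CLEC7A (-0.32) and SLC11A1 (-0.27) were lower with the ligand, and that of MS4A6A (1.56) was higher.

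**Figure D4:**
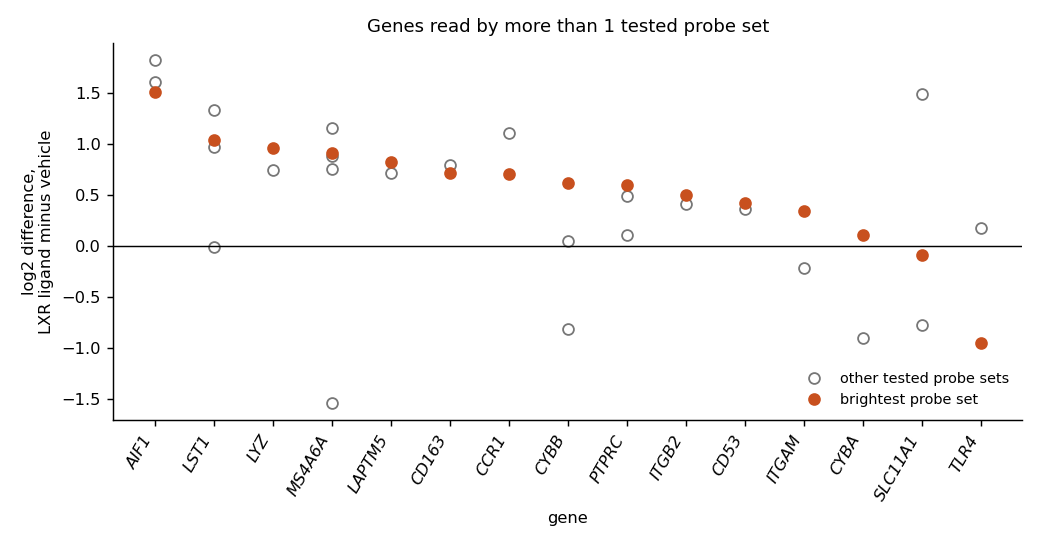
Log2 difference (LXR ligand minus vehicle) of every tested probe set for the 15 genes read by more than 1 (filled orange, the brightest, used in the text; open grey, the others). The points lie together above 0 for AIF1, LYZ, LAPTM5, CD163 and CCR1, and on both sides of 0 for LST1, MS4A6A, CYBB, ITGAM, CYBA, SLC11A1 and TLR4.

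Genes that work with these members went both ways. For growth factor signalling around CSF1R, 6 of 10 tested genes were higher and 4 lower, with a median log2 difference of 0.082, 0 with an unadjusted p under 0.05, and the ligand CSF1 at 0.17 ± 0.35 (SE). PTPN6, a phosphatase that dampens this signalling, had the smallest p of that list, at -0.55 ± 0.28 (SE). Of the partners of TYROBP, only FCER1G and SYK were bright enough. FCER1G, the signalling chain of Fc receptors, had 3139, 2704 and 2708 on the ligand arrays, against 1379, 1190 and 2642 on the vehicle arrays, groups that did not overlap, with a log2 difference of 0.80 ± 0.29 (SE). SYK, the kinase downstream of it, had -0.49 ± 0.72 (SE).

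For the complexes of TLR4 and TLR2, 5 of 9 tested genes were higher and 4 lower. LBP, the liver protein that brings lipopolysaccharide to CD14, had 1845, 2096 and 1969 with the ligand, against 7093, 3446 and 5118 with vehicle, groups far apart in the downward direction, with a log2 difference of -1.34 ± 0.26 (SE). TLR1, which pairs with TLR2, had 0.77 ± 0.37 (SE), and the adaptor MYD88 -0.21 ± 0.29 (SE). The cytosolic NADPH oxidase subunit NCF4 had 0.39 ± 0.37 (SE) and the GTPase RAC2 -1.43 ± 0.87 (SE), the 2 tested oxidase partners. In the list of other integrins and their activators 5 of 6 genes were higher, led by ICAM2, a ligand of leukocyte integrins also made by endothelium, at 1.90 ± 0.61 (SE), while ITGAL had -0.77 ± 0.41 (SE).

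Among macrophage transcription factors 7 of 10 tested genes were higher and the median was 0.091 on the log2 scale. ID3, a regulator that mouse Kupffer cells need, had 1178, 1094 and 1149 on the ligand arrays, against 522, 272 and 763 on the vehicle arrays, and its groups did not overlap. The difference in ID3 was 1.23 ± 0.34 (SE) on the log2 scale. CEBPA, a factor of hepatocytes and myeloid cells, had -0.58 ± 0.22 (SE), and MAF 0.075 ± 0.20 (SE). In the clearance of dying cells 6 of 10 genes were higher. The groups did not overlap for 1 of the 10 upward and 1 downward (6.21% and 5.21% of all tested genes). AXL, a receptor that recognises dying cells through a bridging ligand, had 1631, 2108 and 1906 with the ligand, against 998, 512 and 1066 with vehicle, a log2 difference of 1.18 ± 0.30 (SE) with groups that did not overlap. Its relatives TYRO3 and MERTK had -0.69 ± 0.30 (SE) and -0.95 ± 0.50 (SE), so the 3 receptors of that family did not run in 1 direction.

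Signals of recruitment and inflammation were mixed. Of the chemokines and receptors that recruit monocytes, 3 of 5 tested genes were higher and 2 lower, and CCL5 had the smallest p, at -0.71 ± 0.39 (SE). The groups did not overlap for 0 of these 5 upward and 1 downward (6.21% and 5.21% of all tested genes). CCR2, the receptor of recruited monocytes, and its ligand CCL2 were too dim to be tested, with CCL2 at 19.2, 15.3 and 10.5 on the ligand arrays, against 7.92, 23.0 and 8.62 on the vehicle arrays. Of the inflammatory cytokines 5 of 7 were higher and 2 lower, and the groups did not overlap for 1 of the 7 upward and 1 downward. TGFB1, a cytokine that restrains inflammation and drives fibrosis, had 376, 279 and 370 with the ligand, against 166, 156 and 156 with vehicle, a log2 difference of 1.02 ± 0.33 (SE) with groups that did not overlap. IL1RN, the interleukin-1 receptor antagonist, had -0.66 ± 0.31 (SE), IL1B -0.74 ± 0.78 (SE) and TNF 0.31 ± 0.38 (SE). Of the LXR targets known in macrophages, 11 of 13 tested genes were higher, the median log2 difference was 0.75, and 5 were higher with an unadjusted limma p under 0.05 (50.3% and 3.7% of all tested genes). ABCG1, a cholesterol exporter of macrophages, had 940, 746 and 911 on the ligand arrays, against 297, 356 and 362 on the vehicle arrays, and here vehicle array 3 lay with the other vehicle arrays.

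Other markers of macrophages, none of them among the 34 genes, were also higher. This held for all 12 tested markers, whose median log2 difference was 0.73, and 6 reached an unadjusted limma p under 0.05 (50.3% higher and 3.7% with such a p among all tested genes). The summed signal of the list was 26303 to 28210 on the ligand arrays, against 14265 to 25167 on the vehicle arrays. C1QA, a chain of the first complement component, had 986, 586 and 446 with the ligand, against 206, 169 and 216 with vehicle, at 1.62 ± 0.34 (SE). C1QB and C1QC, the remaining chains, had 1.24 ± 0.35 and 0.84 ± 0.25 (SE). VSIG4, a complement receptor typical of Kupffer cells, had 1016, 1066 and 588 on the ligand arrays, against 469, 674 and 596 on the vehicle arrays, at 0.57 ± 0.29 (SE) with overlap. CD5L, a secreted macrophage protein and LXR target in mouse, had 0.25 ± 0.31 (SE), and the iron exporter SLC40A1 0.0045 ± 0.19 (SE). With vehicle array 2 left out, 11 of these 12 were higher and 3 reached such a p (3.39% of all genes in that fit). The number was 3 with vehicle array 1 left out (3.42%) and 8 with vehicle array 3 left out (4.34%).

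Markers of other blood cells went both ways. Blood monocyte markers were higher in 4 of 5 tested genes, with a median log2 difference of 0.11 and a summed signal of 1427 to 2358 on the ligand arrays, against 1226 to 2397 on the vehicle arrays. S100A9, a calcium-binding protein of monocytes and neutrophils, had -0.69 ± 0.56 (SE) and FCN1 0.59 ± 0.65 (SE). All 3 tested neutrophil markers were lower, at a median of -0.34. Dendritic cell markers had 1 of 3 higher, at a median of -0.10, T and NK cell markers 4 of 6 higher, at 0.12, and B and plasma cell markers 2 of 4, at -0.29. KLRD1, a receptor of NK cells, had 1.17 ± 0.56 (SE), and MZB1, a plasma cell protein, -1.26 ± 0.56 (SE). For MZB1 every ligand array was below every vehicle array. The groups did not overlap upward for 1 of the 6 T and NK cell markers and 0 of the 4 B and plasma cell markers. Platelet markers were higher in 2 of 4 genes, at a median of 0.16. The red cell markers were lower in 3 of 3, led by HBB, a globin chain, which gave 865, 609 and 600 on the ligand arrays, against 11085, 1255 and 828 on the vehicle arrays. Vehicle array 1 was thus far above the other 5 arrays for HBB.

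Cells of the liver itself gave a mixed picture. Endothelial markers were higher in 9 of 11 tested genes, with a median log2 difference of 0.45 and a summed signal of 11123 to 14098 on the ligand arrays, against 9440 to 12422 on the vehicle arrays. Of the 11, 3 were higher and 1 lower with an unadjusted limma p under 0.05 (3.7% and 2.42% of all tested genes). An excess of higher genes with such a p was thus not particular to the macrophage lists. LYVE1, a hyaluronan receptor of the sinusoids that some macrophages also carry, had 1.02 ± 0.34 (SE), ENG 0.66 ± 0.23 (SE) and CDH5 0.58 ± 0.23 (SE), each with groups that did not overlap. VWF, the clotting factor of endothelium, had -3.39 ± 0.47 (SE). Of the 11 endothelial markers, the groups did not overlap for 3 upward and 1 downward (6.21% and 5.21% of all tested genes). Stellate cell and fibroblast markers were higher in 7 of 10, at a median of 0.25, with a summed signal of 33621 to 47761 on the ligand arrays, against 18172 to 28444 on the vehicle arrays. Of these 10, 3 were higher and 0 lower with an unadjusted limma p under 0.05. COL3A1, a fibrillar collagen chain, had 1.12 ± 0.29 (SE), while COL1A1, another such chain, had -0.22 ± 0.20 (SE). Leaving out ligand array 3 left 5 of the 10 higher, at a median of 0.0997. Cholangiocyte markers, those of bile duct cells, were higher in 2 of 4, at 0.086, and hepatocyte markers in 5 of 9, at 0.028. ALB, the hepatocyte product albumin, had 156353, 129327 and 148047 with the ligand, against 121612, 153778 and 136323 with vehicle. The part of these other cell types in the values of the macrophage genes was not tested.

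**Figure D5:**
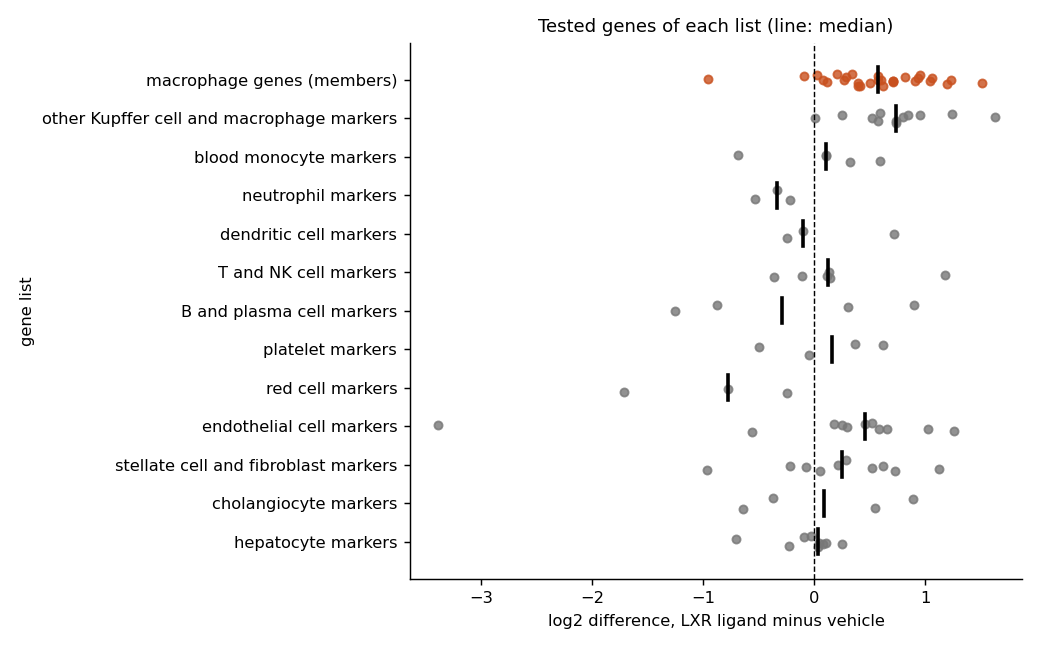
Log2 difference (LXR ligand minus vehicle) of each tested gene in the lists of cell type markers (points) with the list's median (line), and of the 29 macrophage genes in orange. The macrophage genes and the other macrophage markers have medians of 0.57 and 0.73, endothelial markers 0.45, stellate cell markers 0.25 and hepatocyte markers 0.028, and VWF is the point at -3.39.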

How the data were processed

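The deposited values are intensity values, MAS5 signals on a linear scale per the submitters' processing notes, with version, scaling target and filters not given in the sources used here. The 2% trimmed mean was 500.1 on every array. Of 54675 probe sets, 41097 had 1 symbol, 1801 several and 11777 none, controls included. A dim signal cannot be told from an absent transcript, since no detection calls were analysed.

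Signals were transformed to log2(signal + 16), and 62 control probe sets were left out. The 27304 probe sets with a mean signal of at least 129 over the 6 arrays were tested two-sided with limma 3.58.1 (lmFit, eBayes with an intensity trend) in R 4.3.3, with Benjamini-Hochberg adjustment over all of them. The 95% intervals come from that fit. The fit was tested on simulated data with known changes, but no outcome of that check is given here, so it lends the values above no support. With 3 animals per group, the number of arrays limits the precision, with a median SE of 0.35 for log2 differences. Figures used matplotlib 3.10.9 under Python 3.11.15.

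The members and the 22 other lists were chosen with earlier results of these data known, so lists are described by counts and medians without a test. All members are named, and up to 4 genes of each other list, taken by smallest p; further genes of these lists were picked after their values were seen. As alternatives, the pseudocount was set to 1 or 64, arrays were quantile normalized or centred on their medians, the filter was dropped or raised to the 75th percentile, the trend was dropped or eBayes made robust, arrays were weighted, replicate numbers were used as a block, each array was left out in turn, and tested probe sets of a gene were averaged.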

Additional observations from a re-analysis of the deposited data

How the results depend on the processing

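The median difference of the macrophage genes stayed positive under all 17 alternatives, from 0.43 with a gene's probe sets averaged to 0.77 without vehicle array 3, and the number higher from 19 of 20 with the stricter filter to 29 of 33 with none, with 23 of 29 without vehicle array 2. Leaving out single arrays moved the counts. The number with an unadjusted limma p under 0.05 was 2 without vehicle array 2, 13 as the highest without vehicle array 3, and 4 without vehicle array 1. The share of all genes higher with such a p was 3.39%, 4.34% and 3.42% in these fits. The number with groups not overlapping, 5 of 29 with all arrays, ran from 6 to 14, with 14 without vehicle array 3, 13 without ligand array 3, 9 without ligand array 1 and 8 without ligand array 2; with 5 arrays the share of all tested genes was 9.96% to 12.01%, against 6.21% with 6. The number of all probe sets passing after adjustment was 0 to 1 when an array was left out, with 1 without vehicle array 2 and 1 without ligand array 2, and 0 under the other alternatives.

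Signs turned for 7 genes, and the cause was not tested. ITGAX was -0.0063 with quantile normalization and -0.042 with array weights. With probe sets averaged, CYBB was -0.053, CYBA -0.40 and SLC11A1 0.21. When an array was left out, MSR1 ran from -0.16 to 0.42, CYBA from -0.066 to 0.32, ITGAM from -0.019 to 0.74, ITGAX from -0.38 to 0.30, CD4 from -0.014 to 0.23 and SLC11A1 from -0.21 to 0.045. The other 470 of 484 values of single genes kept their sign.

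The replicate numbers recur in both groups, but each array is a separate animal. Same-numbered arrays had correlations across genes of 0.040, -0.031 and 0.070 in their deviations from the group means, against -0.076 to 0.034 for other pairs, and 4 of 6 arrays correlated best with their own number. With the replicate block, 9 of the 29 macrophage genes were higher with an unadjusted limma p under 0.05 (4.28% of all genes in that fit). In the same fit 0 probe sets passed after adjustment.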

Other observations

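Some of the macrophage genes lie side by side in the macaque assembly T2T-MFA8v1.1, taken here for gene order. ITGAM and ITGAX are adjacent coding genes on chromosome 20, with log2 differences of 0.34 and 0.024. AIF1 and LST1 are separated by 1 coding gene on chromosome 4, with log2 differences of 1.51 and 1.04.

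HMOX1, CD74 and CTSS belong to the list of other macrophage markers already counted above. HMOX1, the haem-degrading enzyme induced in macrophages that take up red cells, had signals of 5350, 3568 and 5086 on the ligand arrays, against 2573, 1114 and 4593 on the vehicle arrays. Its log2 difference was 0.95 ± 0.42 (SE), with overlap through vehicle array 3. CD74, the chain that guides MHC class II molecules, had 1362, 1314 and 1535 with the ligand, against 663, 653 and 1334 with vehicle, and CTSS, a lysosomal protease that trims this chain, had 1311, 1521 and 892 with the ligand, against 629, 447 and 1340 with vehicle. In all 3 genes vehicle array 3 lay near or among the ligand arrays and vehicle arrays 1 and 2 lay below them. Other genes of that list did not share this pattern. For C1QA vehicle array 3 lay with the other vehicle arrays, below all ligand arrays, and for VSIG4 it lay below vehicle array 2.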
